A study of Mus musculus with 18 samples.

Results

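The libraries compared here were the 2 controls of a first set, named Ctrl1, and the 2 controls of a set named for neurons, Neuron-ctrl. They are 4 of the 18 mouse RNA sequencing libraries of a study of the developing brain, and were chosen by their column names. Of 32941 genes listed, 11584 had a mean of at least 1 RPKM over these 4 libraries and were tested. RPKM is reads per kilobase of exon, scaled to each library's read total. The labels give both control groups the same source, brain, and the same genotype, WT. They state no strain, age, culture or isolation step, so the word "neuron" in the titles is all that separates the groups. Each control group has a partner with PLAAT3-PEX11 overexpression, PLA1 in the first set and Neuron-PLA in the neuron set, each with 2 libraries labelled brain. The remaining libraries were brains at embryonic days 11, 12, 13, 14, 16 and 18, with 1 library each, and neural stem cells with a scrambled or a Pex7 short hairpin RNA. Each set has a table of its own, so the population, the table and whatever else was handled per set cannot be told apart. No label ties a library to its own animal or culture, and the p-values below therefore describe library-to-library spread, which may be technical.

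In the developing cerebral cortex, radial glia divide beside the ventricle and give rise to intermediate progenitors, whose daughters become excitatory neurons. Deep-layer neurons are made first and upper-layer neurons later. Inhibitory interneurons migrate in from the ventral forebrain, while microglia, the macrophages of the brain, enter from the yolk sac. Genes that respond to interferon are switched on by a complex of transcription factors that binds a short promoter element.

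The read total recovered from the values was between 20450930 and 22356919 per library. Reads in genes with whole counts numbered 19356658 and 20022089 in Ctrl1, against 21389298 and 20797868 in Neuron-ctrl. Genes with any reads numbered 18532 and 19074 in Ctrl1, against 16550 and 15995 in Neuron-ctrl. On the log2(RPKM + 1) scale, which understates differences of low genes, replicates correlated at 0.99 across genes within Ctrl1 and 0.983 within Neuron-ctrl, and at 0.866 to 0.872 between the groups. The SD of the replicate difference was 0.238 in Ctrl1 and 0.316 in Neuron-ctrl, and that of the group difference was 0.839. In all, 6260 genes (54.0%) passed an adjusted p of 0.05 in limma, 3211 higher in Ctrl1 (27.7%) and 3049 lower (26.3%). A difference of at least 2-fold was reached by 1207 of the higher genes (10.4%) and 820 of the lower genes (7.08%). Counts of list members below are read against these shares. The groups did not overlap for 9059 genes (78.2%), so a lack of overlap was common.

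**Figure D1:**
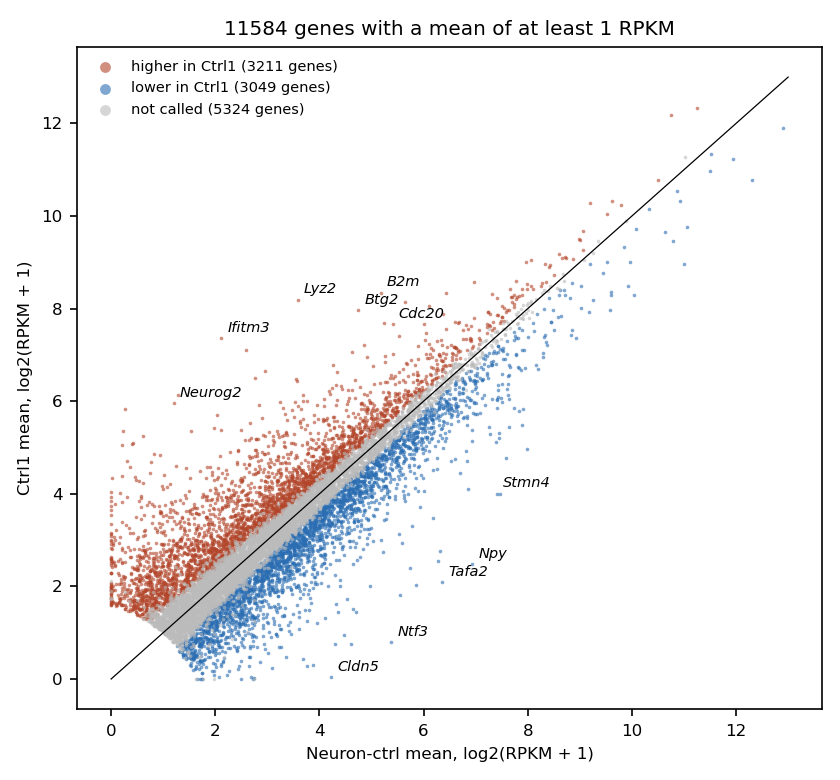
Mean level in Ctrl1 (vertical axis) against Neuron-ctrl (horizontal axis), both as log2(RPKM + 1), for 11584 genes; 1 point is 1 gene, coloured by limma call, and the line marks equal levels. The 3211 genes higher in Ctrl1 lie above the line, with Ifitm3, Neurog2 and Lyz2 far from it, and the 3049 lower genes lie below it, with Ntf3, Npy and Tafa2 far from it.

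Genes of dividing cells and of cortical progenitors were higher in Ctrl1. All 12 listed genes of intermediate progenitors were higher in Ctrl1, with a median log2 difference of 2.39, whereas the median over all genes tested was 0.005. Neurog2 (ENSMUSG00000027967; mm10 chromosome 3, 127633135 to 127635631, plus strand), the proneural factor that commits cortical progenitors to the excitatory lineage, stood at 62.8 and 59.3 RPKM in Ctrl1, against 1.49 and 1.12 RPKM in Neuron-ctrl. Its log2 difference was 4.76 ± 0.12 (SE, n = 2 per group; limma adjusted p = 2.71e-06). Btg2, an antiproliferative gene of progenitors about to make neurons, had 257 and 242 RPKM in Ctrl1, against 26.8 and 24.7 RPKM in Neuron-ctrl, a log2 difference of 3.23 ± 0.07. Both genes were far above the Neuron-ctrl range in both Ctrl1 libraries. Gadd45g and the Notch-modifying glycosyltransferase Mfng also rose, by 2.46 and 2.52. Hes6, which antagonises Hes1, was the most abundant member and differed least among those named, at 304 and 312 RPKM in Ctrl1, against 229 and 222 RPKM in Neuron-ctrl.

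Radial glia genes were split. Of 20 listed, 19 passed the filter on low values; 11 were higher and 4 lower in Ctrl1, with a median of 0.88. Vim, an intermediate filament of radial glia, had 54.1 and 49.5 RPKM in Ctrl1, against 9.78 and 8.58 RPKM in Neuron-ctrl (log2 difference 2.38 ± 0.10). Pax6, the transcription factor that marks dorsal radial glia, had 8.02 and 9.10 RPKM in Ctrl1, against 1.63 and 1.63 RPKM in Neuron-ctrl (1.86 ± 0.14). Nes, Sox9 and Lhx2 were higher by 1.59, 1.08 and 1.20. The other direction was taken by the matrix protein gene Tnc, at 2.62 and 3.14 RPKM in Ctrl1, against 13.8 in each Neuron-ctrl library, and by Fabp7, at 100.1 and 88.7 RPKM in Ctrl1, against 188 and 208 RPKM in Neuron-ctrl. Fabp7 encodes the brain fatty acid binding protein of radial glia. The progenitor factor Sox2 stood at 1.16 and 1.13 RPKM in Ctrl1, against 1.02 and 0.761 RPKM in Neuron-ctrl, and did not pass (adjusted p = 0.434). In the stage libraries Sox2 lay between 25.4 and 139 RPKM. It was 1 of 90 coding genes above 20 RPKM at every stage and under 2 RPKM in all 4 control libraries, and 87.8% of those had an exon overlapping another annotated gene, against 40.2% of the 1838 coding genes that high at every stage. Whether the tables were counted alike was not tested, and levels of Sox2 are not compared between tables.

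Cell-cycle genes rose together. All 25 mitosis genes were higher in Ctrl1, with a median of 2.10, and 23 of 26 tested DNA replication genes were higher and none lower, with a median of 1.34. Cdc20, an activator of the anaphase-promoting complex, had 207 and 199 RPKM in Ctrl1, against 42.1 and 40.5 RPKM in Neuron-ctrl (log2 difference 2.27 ± 0.06, limma adjusted p = 3e-06). Mcm2, a subunit of the replicative helicase, had 59.8 and 64.4 RPKM in Ctrl1, against 9.68 and 7.27 RPKM in Neuron-ctrl. Both genes were well detected in Neuron-ctrl. Of 15 genes for entry into and exit from the cycle, 13 were higher, among them the cyclin genes Ccnd1 (50.7 and 51.0 RPKM in Ctrl1, 12.2 and 15.5 RPKM in Neuron-ctrl) and Ccnd2. Cdkn2d, an inhibitor of cyclin-dependent kinases that is expressed in postmitotic neurons, was the only called member that was lower, with a log2 difference of -0.23. That call was lost without the filter on low values, where 11 of the 15 were higher and none lower.

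Many late cell-cycle genes share a pair of promoter elements, the CCAAT box and the cell cycle homology region, TTTGAA. Among 21 mitosis genes with a RefSeq promoter (GRCm38.p6), both motifs on either strand occurred within 250 bases before the start in 8 (38.1%), against 6.45% of 27025 genes. Top2a and Ube2c are shown by the 150 bases before the start, with both motifs in capitals. They had large differences among members picked for having both motifs in those bases. Top2a is the topoisomerase that untangles sister chromatids (chr11:99024190-99024339, minus strand; 35.7 and 35.2 RPKM in Ctrl1, 6.0 and 5.77 RPKM in Neuron-ctrl), and Ube2c is the ubiquitin-conjugating enzyme of the anaphase-promoting complex (chr2:164769779-164769928, plus strand; 58.6 and 58.2 RPKM in Ctrl1, 11.2 and 10.8 RPKM in Neuron-ctrl).
Top2a: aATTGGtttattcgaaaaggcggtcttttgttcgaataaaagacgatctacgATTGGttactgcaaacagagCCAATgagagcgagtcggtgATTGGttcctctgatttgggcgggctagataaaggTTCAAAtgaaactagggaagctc
Ube2c: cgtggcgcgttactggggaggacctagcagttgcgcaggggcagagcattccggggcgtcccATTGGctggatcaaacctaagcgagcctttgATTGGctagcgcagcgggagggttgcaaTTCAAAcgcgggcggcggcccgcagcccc
In both, a TTCAAA, the reverse complement of TTTGAA, lay nearest the start, its first base 23 bases before it in Top2a and 29 in Ube2c, and CCAAT boxes lay farther out. A match is a description of these letters and not of binding.

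Signalling genes of progenitors were mostly higher in Ctrl1. Of 12 tested Notch genes, 9 were higher and 1 lower, with a median of 1.28, which was 0.72 over all 15 listed genes without the filter on low values. The Notch effector Hes1 had 7.27 and 9.99 RPKM in Ctrl1, against 1.08 and 0.520 RPKM in Neuron-ctrl, and the ligand genes Dll1 and Dll3 rose by 1.67 and 1.99. The ligand gene Jag2 was lower, at 0.456 and 0.587 RPKM in Ctrl1, against 3.08 and 2.85 RPKM in Neuron-ctrl. All 6 tested Hedgehog genes of 12 listed were higher, led by the receptor partner Cdon (2.87), the transcription factors Gli3 (2.32) and Gli2 (2.25), and the transducer Smo (1.47). Of 16 listed Wnt genes 8 were tested, with 7 higher and 1 lower. Fitted without the filter, 6 of the 16 were higher and 1 lower. The secreted modulator Sfrp1 had 75.2 and 82.4 RPKM in Ctrl1, against 20.3 in each Neuron-ctrl library. BMP targets did not share a direction, since Id3 stood at 2.92 and 3.21 RPKM in Ctrl1, against 52.0 and 61.3 RPKM in Neuron-ctrl, Id1 and Id2 were also lower, and Id4 was higher by 1.25. Of 9 tested genes of FGF signalling, 3 were higher and 4 lower. The forebrain factors Emx1, Emx2 and Otx1 rose by 1.38, 1.54 and 1.55, and 5 of the 25 listed regional factors passed the filter, all higher. Without the filter 16 could be fitted, with 4 higher and 1 lower, beside 13.8% higher and 12.0% lower among all genes fitted that way.

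Neuronal genes were lower in Ctrl1, though not absent. Of 18 tested pan-neuronal genes, 14 were lower and 1 higher, with a median of -1.07. Gap43 (ENSMUSG00000047261; chromosome 16, 42248442 to 42340651, minus strand), a growth cone protein, had 248 and 254 RPKM in Ctrl1, against 741 and 789 RPKM in Neuron-ctrl (log2 difference -1.60 ± 0.05, limma adjusted p = 3.91e-06). Tubb3, the neuronal beta-tubulin, had 375 and 337 RPKM in Ctrl1, against 974 and 970 RPKM in Neuron-ctrl (-1.45 ± 0.06). Both markers were abundant in all 4 libraries, so neuronal RNA was present in each group. In bulk RNA, fewer cells of a type and less RNA per cell cannot be told apart. Among 23 genes for axon growth and its microtubules, 16 were lower and 3 higher, or 15 and 1 without the filter on low values. Stmn4, a tubulin-binding phosphoprotein, had 14.3 and 15.8 RPKM in Ctrl1, against 160 and 179 RPKM in Neuron-ctrl, and Dpysl2 and Kif5c were higher by 0.41 and 0.38.

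Layer markers moved in opposite directions. Of 10 tested deep-layer genes, 7 were higher and 2 lower in Ctrl1, with a median of 0.90 that became 1.60 for members averaging 5 RPKM or more, while of 12 upper-layer genes 8 were lower and 1 higher, with a median of -0.99. Fezf2, which specifies neurons projecting below the cortex, had 56.2 and 54.6 RPKM in Ctrl1, against 9.88 and 10.3 RPKM in Neuron-ctrl (2.35 ± 0.08). Its target Bcl11b had 39.0 and 42.9 RPKM in Ctrl1, against 10.7 and 13.6 RPKM in Neuron-ctrl (1.68 ± 0.12). Mef2c (ENSMUSG00000005583; chromosome 13, 83504034 to 83667080, plus strand), a MADS-box transcription factor of cortical neurons, had 9.83 and 10.6 RPKM in Ctrl1, against 69.2 and 74.5 RPKM in Neuron-ctrl (-2.70 ± 0.09), and the log2 difference of the activin subunit gene Inhba was -3.27. The 1 upper-layer member that was higher, Lhx2, is also a radial glia gene and stands in both lists. Fezf2 and Mef2c differed between the groups in opposite senses.

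**Figure D2:**
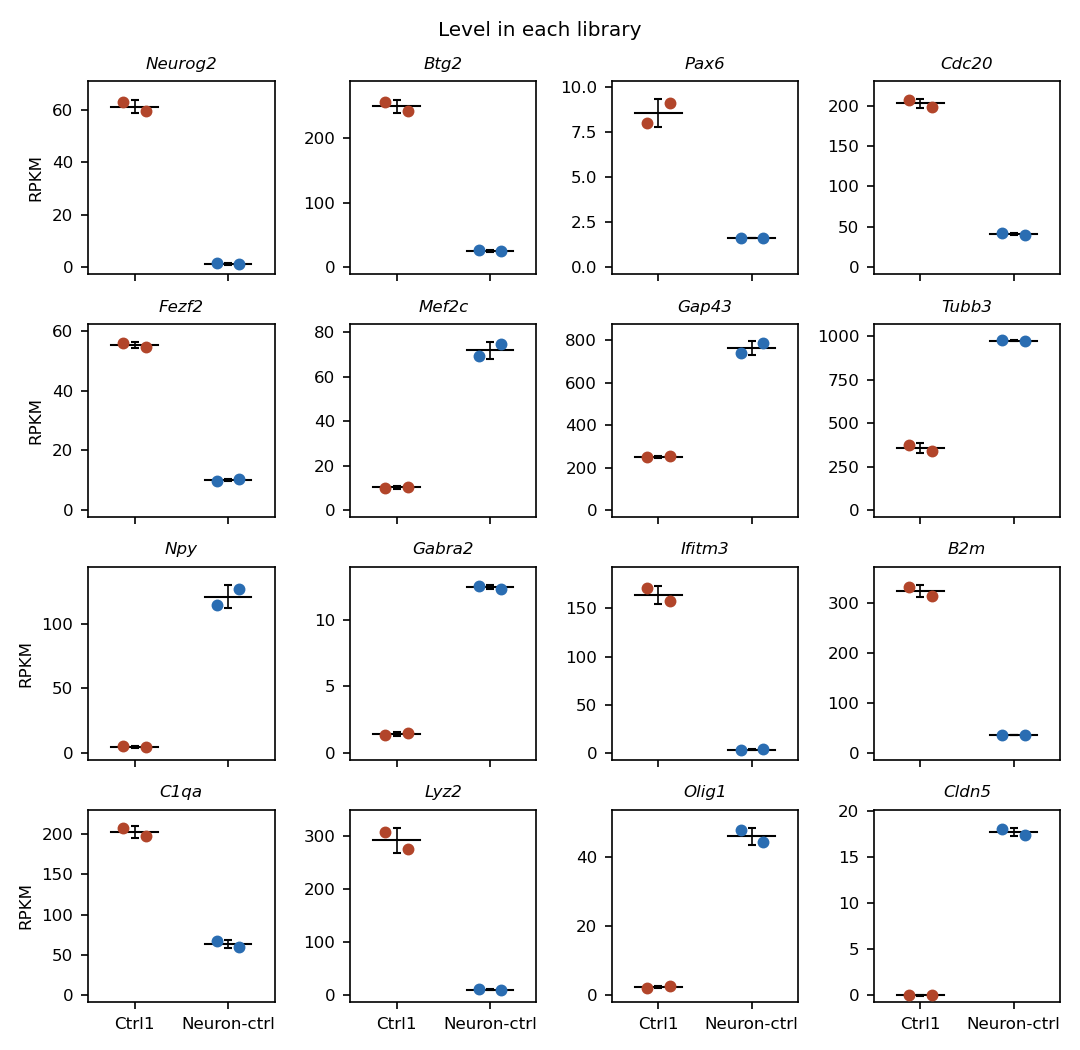
RPKM (vertical axis) of 16 genes in the 2 Ctrl1 libraries (left in each panel) and the 2 Neuron-ctrl libraries (right); points are libraries, bars are means with SD (n = 2). In each panel the groups are apart by far more than the replicates, with Neurog2, Fezf2, Ifitm3 and Lyz2 high in Ctrl1 and Mef2c, Gap43, Npy and Cldn5 high in Neuron-ctrl.

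Genes of inhibitory neurons were low in Ctrl1. Of 18 listed, 13 passed the filter, with 10 lower, none higher and a median of -1.46. Without the filter all 18 could be fitted and 13 were lower, against 12.0% of all genes fitted that way. Npy, a peptide of interneurons, had 5.01 and 4.11 RPKM in Ctrl1, against 115 and 128 RPKM in Neuron-ctrl (log2 difference -4.46 ± 0.11). Dlx1, a homeobox factor of the ventral forebrain, had 17.0 and 16.8 RPKM in Ctrl1, against 48.7 and 48.9 RPKM in Neuron-ctrl. Lhx6, required for interneurons of the medial ganglionic eminence, had 7.46 and 5.83 RPKM in Ctrl1, against 24.4 and 25.9 RPKM in Neuron-ctrl. Of 5 tested markers of Cajal-Retzius cells, early neurons of the cortical surface, Nhlh2, Lhx5 and Trp73 were higher, Calb2 was lower, and Reln did not pass at 2.76 and 3.41 RPKM in Ctrl1, against 1.62 and 2.21 RPKM in Neuron-ctrl.

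Synaptic and channel genes were mostly lower in Ctrl1. Lower calls numbered 15 of 20 tested genes for vesicle release, 10 of 14 glutamate receptor genes, 10 of 11 genes for GABA receptors and chloride transport, 11 of 15 voltage-gated channel genes and 8 of 13 postsynaptic and calcium signalling genes. Higher calls in these lists numbered 2, 1, 0, 0 and 1, the first 3 being Sv2b, Slc17a6 and Grik3 and the last Camk4. The call of Camk4 was lost without the filter on low values, where none of 15 postsynaptic and calcium signalling genes was higher. Gabra2, a GABA-A receptor subunit, had 1.31 and 1.49 RPKM in Ctrl1, against 12.6 and 12.4 RPKM in Neuron-ctrl (-2.49 ± 0.13). Gria2, the AMPA receptor subunit that limits calcium entry, had 10.8 and 11.1 RPKM in Ctrl1, against 39.1 and 37.6 RPKM in Neuron-ctrl. Slc17a6, which loads glutamate into vesicles, ran the other way, at 21.5 and 17.0 RPKM in Ctrl1, against 12.6 and 11.0 RPKM in Neuron-ctrl. Axon guidance genes were divided, 6 higher, among them Dcc and Slit1, and 6 lower, among them Plxna4 and Robo2, of 19 tested. Neuropeptide and granule genes were mostly lower, 10 of 12 tested, with Chga and Nptx1 higher. Ntf3, encoding neurotrophin-3, had the largest negative difference of the genes named by size, at 0.485 and 0.998 RPKM in Ctrl1, against 39.7 and 41.2 RPKM in Neuron-ctrl (-4.59 ± 0.16), and the low-affinity neurotrophin receptor gene Ngfr was higher, at 21.6 and 23.2 RPKM in Ctrl1, against 2.47 and 0.975 RPKM in Neuron-ctrl. Tafa2, which encodes a secreted chemokine-like protein of the brain, had 3.44 and 3.09 RPKM in Ctrl1, against 79.2 and 82.0 RPKM in Neuron-ctrl.

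Regulators that change as progenitors become neurons also differed. The splicing repressor Ptbp1, which falls in neurons, had 76.7 and 77.5 RPKM in Ctrl1, against 19.9 and 15.8 RPKM in Neuron-ctrl (2.06 ± 0.11), while the neuronal splicing factor Rbfox1 had 13.1 and 13.6 RPKM in Ctrl1, against 46.9 and 50.9 RPKM in Neuron-ctrl (-1.80 ± 0.09). In the list of splicing regulators 6 of 20 tested were higher and 9 lower. In the BAF chromatin remodelling complex, the progenitor subunit gene Actl6a rose by 1.69 and its neuronal counterpart Actl6b had a difference of -1.07, with 6 of 14 members higher and 4 lower. Of 17 listed immediate early genes 8 were tested, with 5 higher and 2 lower. Fitted without the filter on low values, 4 of 16 were higher and 2 lower. Jun was higher, at 108 and 120 RPKM in Ctrl1, against 41.8 and 32.4 RPKM in Neuron-ctrl. Btg2, also higher, stands in the intermediate progenitor list as well. Egr1, an activity-regulated factor in neurons, was lower, at 0.861 and 1.63 RPKM in Ctrl1, against 8.96 and 7.63 RPKM in Neuron-ctrl. Of 13 tested imprinted genes 7 were higher, led by the growth regulators Grb10 (58.7 and 59.6 RPKM in Ctrl1, 5.49 and 6.75 RPKM in Neuron-ctrl) and Plagl1, and 5 were lower, among them Snrpn and Meg3.

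**Figure D3:**
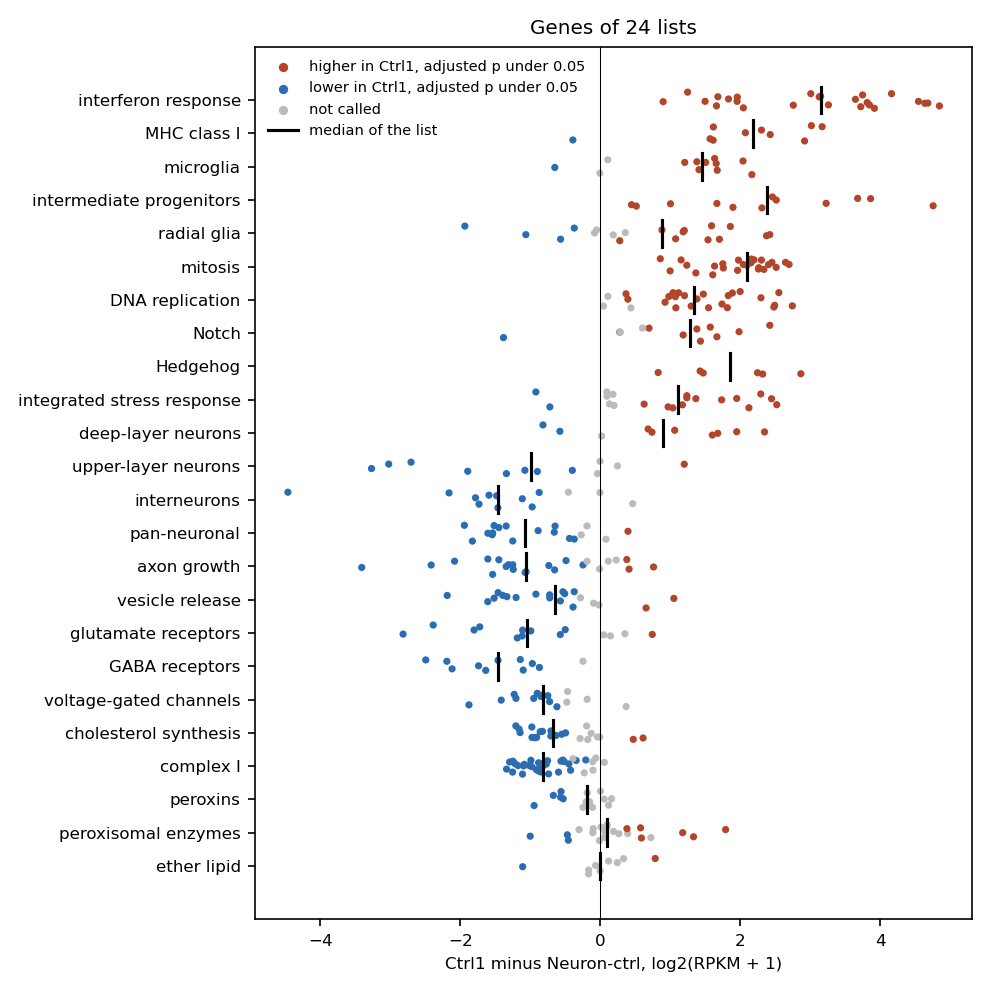
Log2 difference, Ctrl1 minus Neuron-ctrl (horizontal axis, log2(RPKM + 1) scale), of each tested gene in 24 lists; points are genes coloured by limma call and black bars are list medians. The lists for interferon response, intermediate progenitors and mitosis lie right of 0 for every gene, and those of interneurons, GABA receptors and complex I lie mainly left of it. The medians of the peroxin and ether lipid lists lie near 0.

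Interferon-responsive genes were higher in Ctrl1 throughout the list. All 25 were higher in Ctrl1, with a median of 3.15, and the summed level of the list was 495.5 and 480.7 RPKM in Ctrl1, against 30.96 and 28.05 RPKM in Neuron-ctrl. Ifitm3 (ENSMUSG00000025492; chromosome 7, 141009586 to 141010770, minus strand), a membrane protein that blocks viral entry, had 171 and 157 RPKM in Ctrl1, against 2.64 and 4.01 RPKM in Neuron-ctrl (5.27 ± 0.15, limma adjusted p = 3.16e-06). Usp18, the protease that removes ISG15 and damps interferon signalling, had 33.3 and 33.1 RPKM in Ctrl1, against 0.401 and 0.264 RPKM in Neuron-ctrl. Irf9, a DNA-binding factor of the interferon response, had 39.1 and 41.6 RPKM in Ctrl1, against 3.43 and 3.20 RPKM in Neuron-ctrl. None of the 3 genes had overlapping groups, which also held for 78.2% of all genes tested and was required of genes named by size. The list held 7 genes with no read in either Neuron-ctrl library. Of these, Rsad2, encoding the antiviral enzyme viperin, had 12.4 and 14.5 RPKM in Ctrl1 and was at least 856-fold higher, taking 3 reads over the Neuron-ctrl pair as the limit that a count of 0 allows. The same bound was 522-fold for the GTPase gene Gbp2, 174-fold for the antiviral GTPase gene Mx1 and 167-fold for Oas2, a synthetase that activates RNase L. The families of Gbp, Oas, Ifit and Phf11 genes have near-identical copies, so the share of each copy is uncertain. Without the filter on low values all 25 members also passed, against 13.8% of all genes higher in that fit. The median with the 7 genes at their bound was also 3.15, which the added 1 RPKM of the log scale fixes. Restricting the test to genes with at least 1 RPKM in both groups, an alternative chosen after seeing the data, lowered the median of the interferon list to 1.66, below the 2.46 of intermediate progenitor genes and the 2.13 of mitosis genes under the same restriction.

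The interferon-stimulated response element contains GAAA, any 2 bases and GAAA again. Of 17 interferon genes with a RefSeq promoter, 9 (52.9%) held it on either strand within 250 bases before the start, against 3.46% of 27025 genes. For 4 members, the 150 bases before the start are shown with the motif, and overlapping copies of it, in capitals. They had the largest differences among members picked for having the motif in those bases and reads in Neuron-ctrl. Gbp3 encodes an interferon-induced GTPase (chr3:142559894-142560043, plus strand; 37.4 and 36.7 RPKM in Ctrl1, 0.425 and 0.634 RPKM in Neuron-ctrl), and Bst2 tethers budding virus (chr8:71537473-71537622, minus strand; 144 and 128 RPKM in Ctrl1, 6.44 and 3.62 RPKM in Neuron-ctrl). Isg15 is a ubiquitin-like modifier (chr4:156200819-156200968, minus strand; 21.7 and 18.1 RPKM in Ctrl1, 0.191 and 0.131 RPKM in Neuron-ctrl), and Ifit1 binds viral RNA (chr19:34640739-34640888, plus strand; 17.4 and 19.9 RPKM in Ctrl1, 0.370 and 0.416 RPKM in Neuron-ctrl).
Gbp3: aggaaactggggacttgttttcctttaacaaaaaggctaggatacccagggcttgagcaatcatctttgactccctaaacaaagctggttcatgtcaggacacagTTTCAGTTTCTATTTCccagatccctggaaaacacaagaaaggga
Bst2: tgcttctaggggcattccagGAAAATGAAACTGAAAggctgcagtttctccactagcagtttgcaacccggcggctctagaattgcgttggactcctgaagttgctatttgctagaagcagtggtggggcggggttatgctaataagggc
Isg15: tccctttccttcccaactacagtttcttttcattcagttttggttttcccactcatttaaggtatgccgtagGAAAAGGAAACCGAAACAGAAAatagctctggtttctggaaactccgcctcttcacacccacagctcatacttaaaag
Ifit1: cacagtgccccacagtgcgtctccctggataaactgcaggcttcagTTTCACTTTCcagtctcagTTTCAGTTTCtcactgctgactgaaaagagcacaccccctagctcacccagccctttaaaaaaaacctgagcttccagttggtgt
The first base of the outermost match lay 45 bases before the start in Gbp3, 130 in Bst2, 78 in Isg15 and 104 in Ifit1. Each window held at least 2 overlapping or neighbouring matches.

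Genes of MHC class I presentation were higher as well, 9 of 10 tested, with a median of 2.19. B2m, the light chain of class I molecules, had 333 and 316 RPKM in Ctrl1, against 35.4 and 34.8 RPKM in Neuron-ctrl (3.17 ± 0.06), and the heavy chain gene H2-K1 had 91.1 and 84.6 RPKM in Ctrl1, against 9.68 and 11.9 RPKM in Neuron-ctrl. Psmb10, an immunoproteasome subunit, was lower, with a log2 difference of -0.39. This call was lost without the filter on low values, where 10 of 12 were higher and none lower. Saa3, an acute-phase apolipoprotein gene, had the largest positive difference of the genes named by size, at 60.7 and 51.0 RPKM in Ctrl1, against 0.240 and 0.177 RPKM in Neuron-ctrl (5.55 ± 0.13).

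Markers of microglia were mostly higher in Ctrl1 as well. Of 14 listed, 12 passed the filter, with 9 higher, 1 lower and a median of 1.46, and the list summed to 522.2 and 478.9 RPKM in Ctrl1, against 153.1 and 159.8 RPKM in Neuron-ctrl. No defining marker was at 0 in a control library. C1qa, a subunit of complement C1q, had 207 and 197 RPKM in Ctrl1, against 66.8 and 60.0 RPKM in Neuron-ctrl, and Csf1r, the receptor on which microglia depend, had 31.1 and 35.3 RPKM in Ctrl1, against 9.51 and 10.5 RPKM in Neuron-ctrl. P2ry12, a purinergic receptor of resting microglia, was lower, at 3.25 and 2.35 RPKM in Ctrl1, against 3.95 and 6.06 RPKM in Neuron-ctrl. Its call was lost without the filter, where 10 of the 14 listed genes were higher and none lower. Tyrobp, a signalling adaptor, did not pass. Lyz2, a lysozyme of macrophages, differed more than any listed microglial gene, at 308 and 275 RPKM in Ctrl1, against 12.1 and 9.83 RPKM in Neuron-ctrl (4.61 ± 0.11). The further myeloid genes that follow were chosen after their values had been seen. Spi1, the myeloid master regulator, had 5.86 and 4.81 RPKM in Ctrl1, against 0.515 and 0.290 RPKM in Neuron-ctrl. The monocyte gene Ly6c2 had 4.94 and 4.34 RPKM in Ctrl1 and the chemokine receptor gene Ccr2 had 2.75 and 1.72 RPKM in Ctrl1, and both genes were at 0 in Neuron-ctrl. Tmem119, a marker of resident microglia, had 22.2 and 24.6 RPKM in Ctrl1, against 6.61 and 5.79 RPKM in Neuron-ctrl. The mean level of the microglial list, as log2(RPKM + 1), was 3.90 and 3.75 in Ctrl1 and 2.98 and 2.95 in PLA1. It was 2.67 and 2.82 in Neuron-ctrl and 2.36 and 2.37 in Neuron-PLA. In PLA1 minus Neuron-PLA, 8 of its 12 tested genes were higher and 2 lower, with a median of 0.93. The mean level of the interferon list was 3.73 and 3.68 in Ctrl1 and 5.13 and 5.09 in PLA1. It was 0.690 and 0.674 in Neuron-ctrl and 0.624 and 0.687 in Neuron-PLA. The part of these cells in the interferon and MHC differences was not tested.

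Markers of other cell types were low or mixed. Of 12 endothelial genes only Slc2a1 and Cldn5 passed the filter. Slc2a1, the glucose transporter of the blood-brain barrier that other brain cells also express, was higher, at 37.5 and 38.3 RPKM in Ctrl1, against 27.6 and 19.5 RPKM in Neuron-ctrl (0.68 ± 0.15). Cldn5, the tight junction protein of brain endothelium, had 0 and 0.0671 RPKM in Ctrl1, against 18.0 and 17.4 RPKM in Neuron-ctrl (-4.18 ± 0.14), yet Cdh5, the endothelial cadherin, had 0.116 and 0.0452 RPKM in Ctrl1, against 0.245 and 0.208 RPKM in Neuron-ctrl. Without the filter, 6 of 12 endothelial genes were lower and none higher. Red blood cell RNA was lower in Ctrl1, with Hba-a1 at 3.25 and 8.43 RPKM in Ctrl1, against 75.9 and 80.8 RPKM in Neuron-ctrl, and the 10 erythroid genes summed to 7.51 and 11.1 RPKM in Ctrl1, against 106.1 and 112.0 RPKM in Neuron-ctrl. Haemoglobin genes are near-identical copies, and how reads were split among them is uncertain. The oligodendrocyte lineage factor Olig1 had 2.26 and 2.73 RPKM in Ctrl1, against 47.5 and 44.2 RPKM in Neuron-ctrl, and 3 of 6 tested genes of that lineage were lower and none higher. Of 7 tested astrocyte genes 3 were higher and 2 lower, with Apoe, a lipid carrier, at 205 and 204 RPKM in Ctrl1, against 189 and 203 RPKM in Neuron-ctrl (adjusted p = 0.406). Rgs5 was the only 1 of 15 pericyte and meningeal genes to pass the filter, with a log2 difference of -1.69. No choroid plexus or ependymal gene passed, and the 11 listed summed to 0.897 and 1.26 RPKM in Ctrl1, against 0.371 and 0.454 RPKM in Neuron-ctrl. Transcripts of Xist and of Y-linked genes were present in all 4 libraries, with Xist at 5.26 and 4.94 RPKM in Ctrl1, against 5.83 and 6.51 RPKM in Neuron-ctrl and Ddx3y at 9.07 and 9.54 RPKM in Ctrl1, against 6.48 and 6.55 RPKM in Neuron-ctrl.

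Genes of oxidative phosphorylation were lower in Ctrl1. Of 37 complex I genes 31 were lower and none higher, with a median of -0.82, and of 36 tested genes of complexes II to V 27 were lower and 3 higher, with a median of -0.65. Ndufa8 had 53.8 and 50.8 RPKM in Ctrl1, against 127 and 141 RPKM in Neuron-ctrl (-1.34 ± 0.08). Replicate 1 exceeded replicate 2 of Ctrl1 by a median of 0.17 for complex I, 0.20 for complexes II to V and 0.36 for cytosolic ribosomal protein genes, smaller than the group medians of the first 2 lists. The ribosomal list, with 19 of 43 tested lower, 5 higher and a median of -0.35, did not exceed that replicate difference, and its median was -0.55 without Ctrl1 replicate 1 and -0.16 without Ctrl1 replicate 2. Its largest member difference, Rps2 at 110.5 and 87.4 RPKM in Ctrl1, against 6.5 and 6.99 RPKM in Neuron-ctrl, concerns a gene with processed copies whose reads may be shared. The mitochondrially encoded cytochrome b gene, CYTB, had 1788 and 1699 RPKM in Ctrl1, against 5113 and 5004 RPKM in Neuron-ctrl, while the 13 mitochondrial mRNAs had 3 higher and 3 lower. Glycolysis genes were higher in 12 and lower in 5 of 23, with Pkm, which makes pyruvate, at 526 and 537 RPKM in Ctrl1, against 273 and 257 RPKM in Neuron-ctrl.

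Serine synthesis and other targets of the integrated stress response were higher in 13 and lower in 2 of 20 tested, with a median of 1.11. The 2 lower genes were Cbs, with a log2 difference of -0.92, and Vldlr. Phgdh, the first enzyme of serine synthesis, had 261 and 270 RPKM in Ctrl1, against 68.6 and 67.2 RPKM in Neuron-ctrl (1.95 ± 0.06), and Psat1 and Mthfd2 rose by 2.30 and 1.24. Unfolded protein response genes were divided, 6 higher and 5 lower of 16, and so were p53 targets, 5 higher and 4 lower of 14. Cholesterol synthesis genes were lower in 14 and higher in 2 of 22, with Hmgcs1, which makes the precursor of mevalonate, at 52.9 and 52.2 RPKM in Ctrl1, against 123 and 122 RPKM in Neuron-ctrl. Fatty acid synthesis genes were divided, with log2 differences of 1.03 for Acly and -0.87 for Elovl4. Hypoxia genes were higher in 3 and lower in 3 of 10 tested, heat shock genes higher in 1 and lower in 1 of 7, and extracellular matrix genes lower in 3 and higher in none of 7.

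The genes Plaat3 and Pex7, on which the study's perturbations bear, were low in both groups. Plaat3, a phospholipase of the PLAAT family, had 0.413 and 0.431 RPKM in Ctrl1, against 0.0699 and 0.230 RPKM in Neuron-ctrl, below the filter. Pex7, the import receptor for the second peroxisomal targeting signal, had 1.27 and 1.18 RPKM in Ctrl1, against 0.777 and 0.601 RPKM in Neuron-ctrl, also below the filter. Of 14 tested peroxin genes 5 were lower and none higher, beside 26.3% lower and 27.7% higher among all genes tested. Without the filter 2 of 17 were lower and none higher, beside 12.0% and 13.8% of all genes fitted that way. No excess of lower peroxin genes is read from these counts. In ether lipid synthesis 1 of 9 tested was higher, Agps (0.79), and 1 lower, Far2 (-1.11). Among 10 fitted without the filter, none was higher and 1 was lower. Of 23 tested peroxisomal enzymes 6 were higher and 3 lower, with the fatty acid transporter Abcd2 at 18.4 and 18.7 RPKM in Ctrl1, against 4.02 and 5.34 RPKM in Neuron-ctrl, and Idh1 at 60.3 and 63.6 RPKM in Ctrl1, against 123 and 127 RPKM in Neuron-ctrl.

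Beside the embryonic brains, the mean level of the mitosis list, as log2(RPKM + 1), was 4.54 and 4.55 in Ctrl1 and 2.60 and 2.59 in Neuron-ctrl, with 5.13 at embryonic day 11, 4.21 at day 13, 3.27 at day 16 and 1.64 at day 18. Intermediate progenitor genes averaged 5.39 and 5.48 in Ctrl1, above the 2.64 to 5.04 of the stages, and 3.08 and 3.07 in Neuron-ctrl. Upper-layer genes averaged 3.75 in each Ctrl1 library and 4.81 and 4.88 in Neuron-ctrl, above the 2.73 to 3.84 of the stages. Interneuron genes averaged 1.64 in each Ctrl1 library and 2.76 and 2.82 in Neuron-ctrl, both below the 3.57 to 4.33 of the stages. The interferon list averaged 3.73 and 3.68 in Ctrl1, 0.690 and 0.674 in Neuron-ctrl and 0.401 to 0.627 in the stages. These levels were set side by side across tables made separately, with 1 library per stage and no test. Cytosolic ribosomal protein genes averaged 4.475 to 4.873 in the 4 control libraries, against 7.681 to 8.349 in the stages. Whether the tables were counted alike was not tested, so levels above or below the stages may reflect the tables.

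**Figure D4:**
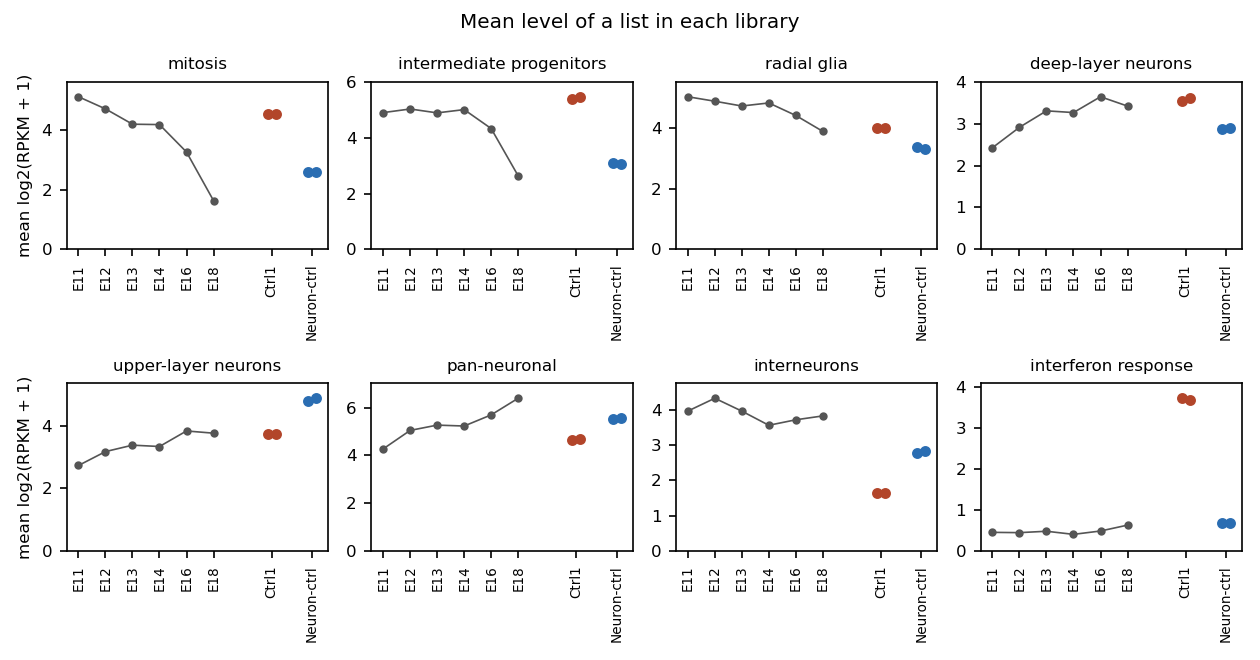
Mean log2(RPKM + 1) (vertical axis) of 8 gene lists in the 6 embryonic stage libraries (grey, joined), the 2 Ctrl1 libraries (red) and the 2 Neuron-ctrl libraries (blue); each point is 1 library. Interferon genes stand at 3.68 and 3.73 in Ctrl1 and at 0.690 or less in Neuron-ctrl and the stages, and upper-layer genes are highest in Neuron-ctrl. The radial glia list includes Sox2, whose levels are not compared between tables.

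The overexpression libraries of the same sets gave a second pair, PLA1 minus Neuron-PLA, that shares no library with the controls but shares their tables. In that pair 6805 genes passed (58.7%), 3654 higher in PLA1 (31.5%) and 3151 lower (27.2%). Of the 3211 genes higher in Ctrl1, 2608 were also higher in PLA1, which is 81.2% of the control calls and 71.4% of the calls in the overexpression pair, and 32 were lower. Of the 3049 genes lower in Ctrl1, 2338 were also lower in PLA1, which is 76.7% and 74.2% of the 2 call lists, and 37 were higher. All 25 interferon genes passed there as well, with a median of 4.74, and all 25 mitosis genes, with a median of 3.08. In limma's test of the difference between the pairs, control minus overexpression, 6.07% of all genes tested passed with a negative value and 5.57% with a positive one. Of the 25 interferon genes 20 passed with a negative value and none with a positive one. So did 20 of 25 mitosis genes, 17 of 20 integrated stress response genes and 14 of 26 DNA replication genes, with none positive. Positive values passed for 19 of 23 axon growth genes and 12 of 18 pan-neuronal genes, with none negative. The median difference of each of these lists was smaller in size in the control pair. Of 12 tested microglia genes none passed with a negative value and 3 with a positive one. Neurog2 differed by 4.12 and Mef2c by -3.89 in the overexpression pair.

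**Figure D5:**
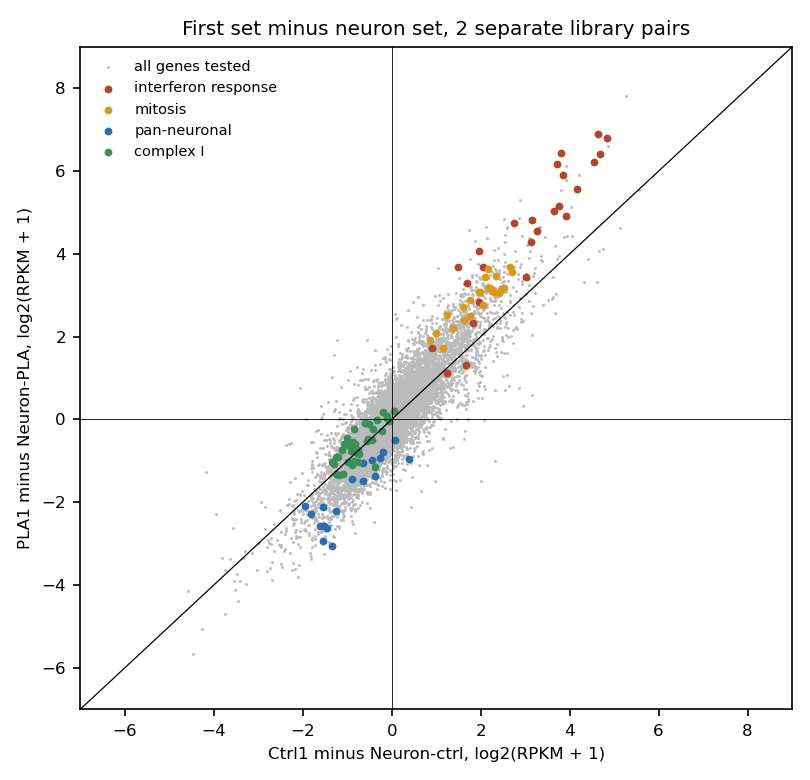
Log2 difference of each tested gene in the overexpression pair, PLA1 minus Neuron-PLA (vertical axis), against the control pair, Ctrl1 minus Neuron-ctrl (horizontal axis), both on the log2(RPKM + 1) scale; grey points are all genes, colours mark 4 lists and the diagonal marks equal differences. Most interferon and mitosis genes lie above the diagonal in the upper right and pan-neuronal genes lie mainly below 0 on both axes.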

How the data were processed

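RNA sequencing of 18 mouse libraries was used. Total RNA (2 ug) extracted with Trizol was sequenced on an Illumina HiSeq 2500, per the labels' protocols and the design text. Reads were aligned to mm10 with STAR 2.7.9a, and HTSeq 0.6.0 made the counts, as the submitters' processing notes name them; whether counting used strand is not given in the sources used here. The deposited values are RPKM, read from the values themselves, since no header names the unit. Multiplying each by the GENCODE M21 exon length (32009 of 32941 genes, 97.2%) and 1 total per library gave whole reads within 0.01 for 97.6% to 97.8% of values in the 4 control libraries, so each library was scaled to its own total and the same lengths were used in both tables. Where a limit for 0 reads is given, it covers counting error only.

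Ctrl1 (2 libraries) was compared with Neuron-ctrl (2 libraries) with limma 3.58.1 in R 4.3.3 on log2(RPKM + 1) with a mean-variance trend, for genes averaging 1 RPKM or more, and p-values were adjusted by Benjamini-Hochberg over all of them. PLA1 and Neuron-PLA were fitted alone on the same genes, and 1 fit of all 8 libraries tested the difference between the pairs. Alternatives were other pseudocounts, filters and scalings, limma-voom on recovered reads, removal of trends with exon length and GC, a replicate block, and leaving out each library. The libraries, lists and members were chosen with earlier results of these data known, and no list was tested as a set. Named genes are Plaat3 and Pex7, the 10 largest differences in each direction that were called, averaged 5 RPKM or more and had no overlap between groups, up to 4 called members per list in its main direction and up to 2 in the other, and the 3 most abundant members of each cell type list. Others named for a role in the interferon, mitosis, myeloid, marker or promoter accounts (among them Rsad2, Gbp2, Mx1, Oas2, Bst2, Isg15, Ifit1, Top2a, Sox2, Cdh5 and Tyrobp) were chosen after their values were seen. Some genes that the rule covers are not reported here. Coordinates are from GENCODE M21 and promoters from RefSeq, both on GRCm38.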

Additional observations from a re-analysis of the deposited data

Results flagged for a closer look

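Some genes named by size of difference separated Ctrl1 from Neuron-ctrl to another extent than PLA1 from Neuron-PLA, by limma's test of the difference between the pairs, adjusted over all genes. Of the 25 listed interferon genes, the value was negative, a smaller difference in the control pair, for 20 and positive for none at an adjusted p under 0.05. The same counts were found for the 25 mitosis genes, so this was not particular to the interferon list. The control minus overexpression difference was -2.54 for Ifitm3 (5.27 in the control pair, 7.81 in the overexpression pair; adjusted p = 0.00049), -2.25 for Gbp3, -1.94 for Oasl2, -1.74 for Usp18 and -1.74 for Rtp4, an interferon-induced chaperone gene. Phf11b, which is not in that list, had 0.50 and did not pass (adjusted p = 0.194). Lyz2 differed more in the control pair, by 1.29. Among genes lower in the first set, the value was 1.20 for Npy, 0.81 for Tafa2 and 0.95 for Gucy1a1, a subunit of the nitric oxide receptor, all less negative in the control pair. It was -2.92 for Cldn5, -1.67 for Hbb-b1, a beta-globin gene, and -0.94 for Rxrg, a retinoid receptor gene, all more negative in the control pair. Each rests on 8 libraries, 2 per group, and the direction within each pair was the same.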

How the results depend on the processing

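The count of 6260 called genes stayed within 1.5 times of itself under the 2 other pseudocounts, the other filters and scalings, limma-voom, removal of length and GC trends, and a spread estimated over 8 libraries. Higher calls outnumbered lower ones as reported but not in every setting, with 2907 higher and 3547 lower once length and GC trends were removed, 3031 and 3238 under upper-quartile scaling, 2092 and 2199 for a mean of at least 5 RPKM, and 2628 and 2725 with at least 1 RPKM in both groups. The total fell to 3741 without Ctrl1 replicate 1 and to 3676 without Ctrl1 replicate 2, and leaving out 1 library at a time gave 3676 to 5951; a lone library was then assumed to vary like the other group. The corresponding range in the overexpression pair was 4836 to 6278, against 6805. Replicate numbers did not pair the libraries (correlation of deviations -0.015), and a fit with the replicate block called 6428. Of 284 tested genes that the naming rule covers, 274 were called. Of those, 47 lost the call in at least 1 setting and 29 in a setting other than leaving out a library, while none changed sign. The cause was not tested. Read totals of 20450930 to 22356919 limit genes near 1 RPKM, and the interferon list median ranged from 1.66, with at least 1 RPKM required in both groups, to 6.49 in limma-voom.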
